A study of Mus musculus with 6 samples.

Results

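The 9 genes Ptprc, Csf1r, Spi1, Runx1, Ikzf1, Blnk, Cd68, Laptm5 and Lyz2, which are used in blood and immune cells, were examined in the open chromatin of muscle stem cells (MuSCs) of 2 genotypes. A peak was counted for a gene when the peak table gives it that gene's symbol, or when it has no gene and lies between the start and stop of the gene. By this rule, 40 of the 75412 peaks belonged to 6 of the 9 genes: 24 to Runx1, 9 to Blnk, 3 to Spi1, 2 to Ikzf1 and 1 each to Csf1r and Cd68. Ptprc, Laptm5 and Lyz2 had no peak. Of the 40 peaks, 14 carried a symbol and 26 lay inside a gene without carrying one, 23 of them in Runx1.

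ATAC-seq, in which Tn5 transposase inserts adapters into accessible DNA, had been performed on freshly isolated MuSCs of C57BL/6 mice, with 3 biological replicates and 1 library each of the control and of the Taf4a sKO genotype. In the Taf4a sKO mice, Pax7Cre drives recombination of loxP sites around exons 11 and 12 of Taf4a after tamoxifen, so the deletion is made in cells that use Pax7, a gene of MuSCs and not of blood. The labels name the comparison group control, or WT in the sample titles. The study describes its controls as littermates with floxed Taf4a alleles, with or without Pax7Cre. Which kind gave these libraries, and whether it had received tamoxifen, is not given in the sources used here. The cells were depleted of SCA1, CD45 and CD31 positive cells with magnetic beads after lysis of red blood cells, and were then sorted for integrin alpha 7 or for a Pax7 reporter. By the methods, the sorted cells were analysed again and were not fully pure. CD45 is the product of Ptprc, so the sort itself acts on a gene described here.

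Blood cells descend from stem cells whose fate is set by a few transcription factors. RUNX1 is needed to make the definitive blood stem cells, PU.1 (the product of Spi1) drives the myeloid and B lineages, and IKAROS (Ikzf1) the lymphoid lineages. Their targets include the receptor for macrophage colony-stimulating factor (Csf1r), the tyrosine phosphatase CD45, the B cell adaptor BLNK, and the lysosomal proteins CD68, LAPTM5 and lysozyme 2, the last a mainstay of macrophages and neutrophils. RUNX1 is also made outside blood, in regenerating muscle among other places. Its gene has a distal and a proximal promoter that lie far apart.

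Sequences at start sites without and with a peak are shown first. Each is from the mouse assembly GRCm38.p6 (the coordinates of mm10), 5′ to 3′ on the strand of the gene and without annotated exon bases. Capitals mark matches on either strand to the motifs searched, which were GAGGAAGT for PU.1, CGGAAGT for other ETS factors, TGTGGTT for RUNX, AGATAAG for GATA factors, TGANTCA for AP-1, CAGCTG for an E-box and CCAAT for NF-Y. The stretch of Ptprc and that of Lyz2 lie just upstream of start sites without a peak, at chr1:138175307-138175555 and chr10:117282322-117282522, both on the minus strand. That of Ikzf1, at chr11:11685675-11685924 on the plus strand, lies, but for its last bases, under a peak of very low signal. That of Cd68 is the upstream part of its peak, at chr11:69666154-69666358 on the minus strand, where an AP-1 and an E-box match share letters.
Ptprc: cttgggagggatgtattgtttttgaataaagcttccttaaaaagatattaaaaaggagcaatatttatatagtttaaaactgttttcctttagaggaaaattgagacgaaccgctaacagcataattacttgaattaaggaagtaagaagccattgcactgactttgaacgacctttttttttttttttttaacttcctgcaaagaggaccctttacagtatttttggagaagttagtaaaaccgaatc
Lyz2: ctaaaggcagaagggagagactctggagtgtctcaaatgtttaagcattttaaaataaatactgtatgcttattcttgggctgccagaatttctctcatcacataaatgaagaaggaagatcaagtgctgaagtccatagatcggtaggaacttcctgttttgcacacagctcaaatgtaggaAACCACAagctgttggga
Ikzf1: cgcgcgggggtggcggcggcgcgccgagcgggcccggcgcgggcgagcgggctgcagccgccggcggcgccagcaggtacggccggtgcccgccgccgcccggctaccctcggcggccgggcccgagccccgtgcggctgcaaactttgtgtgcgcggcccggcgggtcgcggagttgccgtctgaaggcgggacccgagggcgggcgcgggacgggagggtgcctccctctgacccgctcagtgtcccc
Cd68: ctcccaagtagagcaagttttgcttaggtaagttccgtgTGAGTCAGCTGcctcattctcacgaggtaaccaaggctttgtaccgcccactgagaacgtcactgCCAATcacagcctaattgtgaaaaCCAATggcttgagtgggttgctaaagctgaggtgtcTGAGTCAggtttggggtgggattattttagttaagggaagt

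For Runx1 the 250 bases before the proximal start, at chr16:92697330-92697579, and the 175 bases before the distal exon 1, at chr16:92826150-92826324, are shown. With them are the 250 bases of highest motif content from 2 peaks that were higher in Taf4a sKO than in control MuSCs, at chr16:92823726-92823975 and chr16:92788579-92788828. For Blnk the same is given for its most accessible peak, at chr19:40995928-40996177. All are on the minus strand.
Runx1 proximal promoter: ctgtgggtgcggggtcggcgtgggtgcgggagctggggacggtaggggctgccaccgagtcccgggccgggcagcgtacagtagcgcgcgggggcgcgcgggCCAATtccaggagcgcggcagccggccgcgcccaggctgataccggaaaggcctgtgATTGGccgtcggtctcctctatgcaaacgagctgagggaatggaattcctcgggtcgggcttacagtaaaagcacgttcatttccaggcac
Runx1 distal promoter: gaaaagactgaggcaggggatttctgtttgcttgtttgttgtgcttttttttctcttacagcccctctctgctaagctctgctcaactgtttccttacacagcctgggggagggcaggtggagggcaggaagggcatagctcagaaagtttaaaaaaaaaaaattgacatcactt
Runx1 peak near the distal promoter: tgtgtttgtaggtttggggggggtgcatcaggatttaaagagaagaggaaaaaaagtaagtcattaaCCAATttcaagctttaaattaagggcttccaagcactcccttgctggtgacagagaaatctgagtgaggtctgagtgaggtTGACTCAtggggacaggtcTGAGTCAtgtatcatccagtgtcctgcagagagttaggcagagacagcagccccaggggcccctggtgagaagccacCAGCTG
Runx1 peak in intron 2: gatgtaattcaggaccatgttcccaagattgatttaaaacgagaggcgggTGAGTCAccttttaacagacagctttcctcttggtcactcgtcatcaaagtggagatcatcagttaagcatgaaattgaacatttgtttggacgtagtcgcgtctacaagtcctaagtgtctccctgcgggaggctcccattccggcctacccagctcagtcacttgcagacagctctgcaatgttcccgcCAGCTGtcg
Blnk upstream peak: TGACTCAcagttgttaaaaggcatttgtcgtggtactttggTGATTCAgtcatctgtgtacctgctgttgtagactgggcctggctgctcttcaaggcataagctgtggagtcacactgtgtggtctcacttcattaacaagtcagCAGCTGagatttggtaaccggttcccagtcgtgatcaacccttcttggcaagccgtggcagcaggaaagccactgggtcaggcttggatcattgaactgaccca

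The RefSeq table of promoters, which covers 250 bases before to 50 after a start, holds 10 promoters of 7 of the genes, and 4 of the 10 overlapped a peak: the proximal Runx1 promoter, an Ikzf1 promoter and those of Blnk and Cd68. Over all 32851 promoters in the table, the share with a peak was 45.9%. The promoters differed in CpG content. The observed to expected ratio of CpG was 1.01 at the proximal and 0.14 at the distal Runx1 promoter, and 1.06 at the Ikzf1 promoter with a peak. Of all promoters within 0.1 of these ratios, 96.2%, 8.78% and 96.8% overlapped a peak. Lyz2 had a ratio of 0.07 and Laptm5 of 0.31, where 5.75% and 21.5% of promoters with a like ratio had a peak, and the Ptprc promoters had 0.17 and 0.48 (10.5% and 48.1%). Blnk and Cd68, with 0.37 and 0.24, had a peak, as did 28.7% and 15.0% of promoters of like CpG content. Matches to the RUNX motif were 2 in the distal Runx1 promoter, nearer to the start than the bases printed, and 1 in that of Lyz2, and 5.27% of all promoters held any. A match is a description of the letters and not a binding site.

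The muscle identity of the libraries was read from other genes. For all gene lists here and below, a peak was counted only when it carries the gene's symbol. By symbol alone, the 9 genes had 14 peaks. All 19 genes of a MuSC list (such as Pax7, Myf5, Cdh15 and Heyl) had a peak within 1000 bp of the start site. Taking the densest start-site peak of each of these genes, the median control value was 1091 per kb of peak. The unit is that of the table, a read count scaled for sequencing depth. Among protein-coding genes of GENCODE vM21, 11820 of 21951 (53.8%) had a start-site peak. The median was 1066 per kb over all 12051 such peaks, not only the densest of each gene. Of the 9 haematopoietic genes, 3 had one at the annotated start of the gene (Ikzf1, Blnk and Cd68), while the peak of Runx1 over its proximal promoter lies far from that start and is not counted here. Within 3000 bp it was 5 of 9, since Spi1 and Runx1 have a peak near the start. In 7 lists of genes used in blood lineages, 9 of 89 genes (10.1%) had a peak at the start site, and 37 had any peak. A list of haematopoietic transcription factors, kept apart from these 7, had one at 12 of 20 genes (60%).

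**Figure D1:**
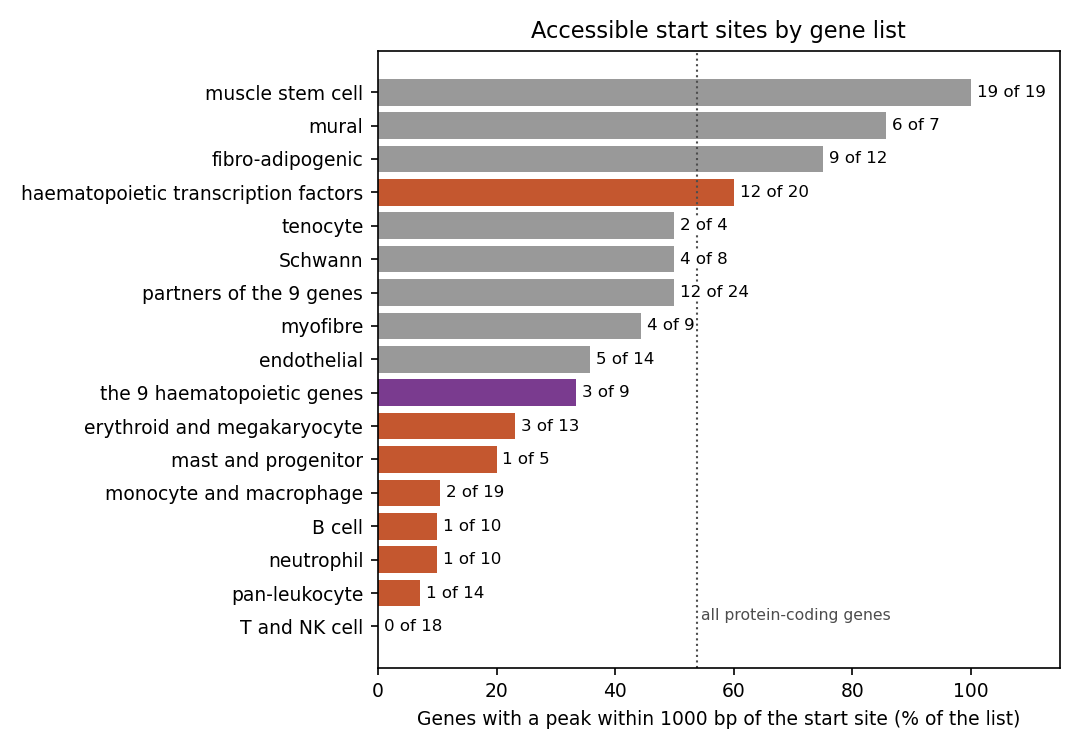
Share of the genes of each list (percent, x axis) with an ATAC-seq peak within 1000 bp of the start site. The bars carry the counts, the dotted line marks 53.8% of all protein-coding genes, violet is the set of 9 genes and orange are lists of genes used in blood; T and NK cell genes stand at 0 of 18 and MuSC genes at 19 of 19.

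The absent and the low genes were described by lineage. The pan-leukocyte list had a start-site peak at 1 of 14 genes, Lcp1, and that peak also covers the start of Lrrc63. Of 19 monocyte and macrophage genes, Cd14 and Fcgr3 had one. No peak carried the symbol of Adgre1, C1qb, C1qc, Ccr2, Fcer1g, Itgam, Trem2 or Tyrobp. The neutrophil list had 1 of 10 (Camp, an antimicrobial peptide), the B cell list 1 of 10 (Vpreb1, whose peak also covers the start of Top3b), the T and NK cell list 0 of 18, the erythroid and megakaryocyte list 3 of 13, and the mast and progenitor list 1 of 5 (Flt3). Defining genes whose symbol no peak carried included Cd79a and Ms4a1 of B cells and Cd3e, Cd3d, Cd3g and Cd4 of T cells. S100a8, S100a9 and Ly6g of neutrophils and the globin genes Hba-a1, Hba-a2, Hbb-bs and Hbb-bt were without one too. Peaks without a gene that lie inside these genes were not counted. A gene without a peak has no value in the table, since peaks were called against a threshold, so this gives no level and no limit. In bulk chromatin, fewer cells with an open site and a lower openness per cell cannot be told apart.

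The summed values of the 7 lineage lists were 22888, 20931 and 26774 in control and 30318, 27818 and 27776 in Taf4a sKO libraries, in 54 peaks. The gene with the largest summed control value was Itga2b (4676) in the erythroid and megakaryocyte list, Lsp1 (3804) in the pan-leukocyte list, Cd2 (2513) in the T and NK cell list, Vpreb1 (1246) in the B cell list, Cd14 (709) in the monocyte and macrophage list, Flt3 (272) in the mast and progenitor list and Camp (255) in the neutrophil list. Each Taf4a sKO sum of the 7 lists together lay above each control sum. Taken singly, this held for the erythroid and megakaryocyte list (5568, 5361 and 7239 against 9305, 8349 and 8247), the B cell list (1942, 1775 and 2106 against 2513, 2619 and 2524) and the neutrophil list (429, 410 and 555 against 803, 692 and 725). These lists hold few peaks. The erythroid and megakaryocyte list had 10 (4 higher, 1 lower), the B cell list 4 (1 higher, 2 lower) and the neutrophil list 2 (1 higher). Over all peaks tested, 28.0% were higher and 13.9% lower, and 32.3% were separated upwards. The higher peak of the B cell list, of Blk, went from 553, 477 and 627 to 1088, 1302 and 1159. The pan-leukocyte, monocyte and macrophage, T and NK cell and mast and progenitor sums overlapped between the genotypes. Whether a share of blood cells contributed was not tested.

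The nearest peak to the start of Ptprc lay 130853 bp away. For Lyz2 it was 57389 bp, in a peak that the table gives to Yeats4, and for Laptm5 12990 bp. No peak overlapped these 3 genes in GENCODE vM21, where Ptprc spans 112848 bp on chromosome 1 (138062861 to 138175708), Laptm5 23017 bp on chromosome 4 (130913125 to 130936141) and Lyz2 4991 bp on chromosome 10 (117277331 to 117282321). The gene of the surface protein used for depletion was thus without a peak in the control and in the Taf4a sKO libraries alike.

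The genotype labels were checked at the targeted gene, which the table lists as Taf4. The peak over exon 12 (chromosome 2, 179922849 to 179923263) had values of 65, 78 and 137 in control and 44, 22 and 25 in Taf4a sKO libraries, without overlap (log2 change -1.58, SE 0.30, adjusted p = 3.4e-04 from limma). A remaining value was present in each Taf4a sKO library.

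All 40 peaks passed the minimum mean value of 10 over the 6 libraries. In Taf4a sKO MuSCs, 20 of them were higher, 2 were lower and 18 were not called (limma on log2(value + 1), Benjamini-Hochberg adjusted over all 75384 peaks tested, call at an adjusted p under 0.05). Over all peaks tested, 28.0% were higher and 13.9% were lower. By the thresholds of the study, a log2 ratio of group means beyond 1, 6 were gained and none were lost, where 7.03% of all peaks were gained and 5.36% lost. With TMM, median-of-ratios or equal-total scaling, 4 were gained and 2 were lost, and the shares of all peaks were not computed there. All 3 Taf4a sKO values lay above all 3 control values at 23 of the 40 peaks and below them at 2, against 32.3% and 18.0% of all peaks tested. The median log2 change of the 40 peaks was 0.37, and that of all peaks 0.11.

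These counts were mainly those of Runx1. Without it, 3 of 16 peaks were higher, 2 were lower and none was gained or lost, with a median log2 change of 0.20. More of these peaks were higher without control replicate 3 (adjusted p = 8.1e-04 to 0.043 from limma). Those added were the Spi1 peak at 91084063 and the Blnk peaks at 40963054, 40989960, 40995713 and 40998512. The values summed over the 40 peaks were 18818, 18536 and 23923 in control and 27765, 26280 and 27282 in Taf4a sKO libraries, a log2 ratio of 0.41. Without Runx1 they were 5263, 5406 and 6549 against 7035, 6625 and 7184. Both sums were separated between the genotypes. The 40 peaks held 0.0499%, 0.0526% and 0.0559% of the control and 0.0627%, 0.0631% and 0.0650% of the Taf4a sKO total in peaks. Library totals ranged from 35226223 to 42803315 in control and from 41661725 to 44311913 in Taf4a sKO libraries, and control replicate 3 had the highest control value at 34 of the 40 peaks. The scaling moved the median change of all peaks, which went from 0.11 with the values as deposited to -0.04 with equal library totals. The share of higher among all called peaks was then 47.6% instead of 66.8%. With equal totals, 19 of the 40 peaks were higher and 2 were lower, beside 23.4% and 25.8% of all peaks tested, and the median log2 change of the 40 was 0.22. Without control replicate 3, 27 were higher and 3 lower, beside 37.8% and 12.9% of all peaks tested.

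Among the 9 genes, Runx1 had the most peaks and the largest summed value. The gene spans 224684 bp on the minus strand of chromosome 16 (92601466 to 92826149), and 17 of its 24 peaks were higher, 6 of them gained and none lower, beside 31.6% higher and 7.92% gained of all 2752 peaks of that chromosome. The median log2 change of the 24 was 0.57. It was 0.98 for the 10 peaks between the promoters, of which 7 were higher and 5 gained, and 0.54 for the 13 downstream of the proximal promoter, of which 10 were higher and 1 gained. The proximal promoter itself was not called.

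The peak over the proximal promoter (92696497 to 92698887) had the largest values of the 24 and, in control, the highest density of them, with 1867 per kb. Its values were 4378, 3885 and 5127 in control and 5737, 4869 and 5099 in Taf4a sKO libraries. The genotypes overlapped, and the log2 change of 0.24 (SE 0.11) did not pass the threshold (adjusted p = 0.085 from limma). It did so with median-of-ratios factors (adjusted p = 0.046), after quantile normalization (0.0019) and without control replicate 3 (0.0021). In Taf4a sKO MuSCs it had 2190 per kb, and the peak at 92623854 to 92624432 was denser, with 2343 per kb. A peak 23 bp from a protein-coding transcript start, over exon 3 (92695518 to 92695759), was not called either, with 245, 254 and 282 against 261, 262 and 263.

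The peak nearest to the annotated start of the gene (92823396 to 92824953), in the intron after the distal promoter and 825 bp from a protein-coding transcript start, went from the lowest density of all Runx1 peaks in control, 162 per kb, to 2.51 times that level. Its values were 225, 237 and 294 in control and 623, 597 and 674 in Taf4a sKO libraries. The genotypes were far apart, with a log2 change of 1.33 (SE 0.14, adjusted p = 1.1e-07 from limma). The distal promoter itself, 1196 bp farther, had no peak. Of this peak, 34.9% is soft-masked as repeat in the reference, against a median of 8.10% over all peaks, and multi-mapping reads had been removed.

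A cluster of gained peaks lay in intron 2, 37446 to 55096 bp from the gene start. The peak of largest change (92783726 to 92784137) had 58, 52 and 90 in control and 201, 164 and 170 in Taf4a sKO libraries (log2 change 1.44, SE 0.20, adjusted p = 5.9e-06 from limma). The peak at 92778020 to 92778559 had 174, 156 and 225 against 419, 423 and 497, and a log2 change of 1.28. In both, the genotypes did not overlap.

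Next to them, the peak at 92770715 to 92771392 had 121, 102 and 158 against 296, 317 and 255 (log2 change 1.20). The peak at 92788360 to 92789047, with 313, 302 and 373 against 709, 688 and 679, was the most accessible of the cluster (log2 change 1.07, SE 0.13, adjusted p = 6.8e-07 from limma). Under TMM scaling the log2 ratio of the latter was 0.96 and under equal totals 0.93, below the threshold of 1, so it did not count as gained there.

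Of the downstream part, 1 peak was gained, in intron 6 (92631501 to 92632858). It had values of 678, 706 and 846 in control and 1472, 1500 and 1526 in Taf4a sKO libraries (log2 change 1.02, SE 0.11, adjusted p = 2.2e-07 from limma). Its log2 ratio of group means, 1.01, was 0.91 under TMM scaling and 0.87 with equal totals, below the threshold. With the peak near the distal promoter and that at 92788360, it had the smallest p of the gene. The other higher peaks changed by 0.40 to 0.88 on the log2 scale. The 7 peaks that were not called included the one with the lowest mean in the gene, at 92706527 to 92706704, with 35, 48 and 18 against 19, 22 and 13. Without control replicate 3 this peak was lower (log2 change -1.17, adjusted p = 0.0084 from limma). The peak at 92679701 was lower after quantile normalization (log2 change -0.21, adjusted p = 0.031 from limma).

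**Figure D2:**
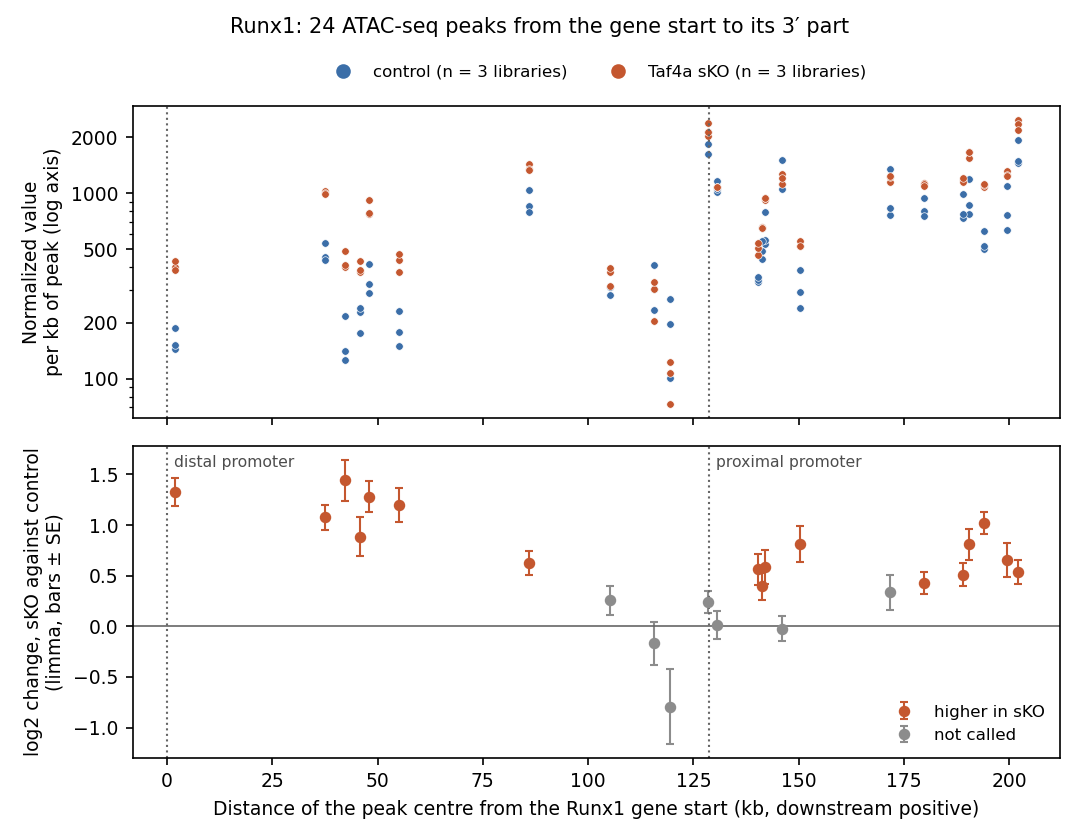
Runx1 peaks by distance of the peak centre from the gene start (kb, x axis). Upper panel: normalized value per kb of peak on a log axis, with each point 1 library (blue control, orange Taf4a sKO, n = 3 each). Lower panel: limma log2 change with SE, coloured where called; the peak near the distal promoter and the cluster that follows stand highest (1.07 to 1.44 for the gained ones), while the proximal promoter peak is at 0.24.

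Inside the span of Runx1, 4 more peaks are given by the table to Gm26626, a gene annotated as antisense, and were not counted. They include a pair of strong peaks, at 92608097 to 92610172 with 3187, 3130 and 4453 in control and 4926, 4762 and 4593 in Taf4a sKO libraries (log2 change 0.43, adjusted p = 0.0065 from limma), and at 92620534 to 92622198, with 1956 per kb in control and values of 3013, 2621 and 4134 against 4151, 4119 and 4094 (log2 change 0.37, adjusted p = 0.031 from limma). The former did not overlap between the genotypes and the latter did. ATAC-seq has no strand, so the peaks cannot be given to either gene from the data.

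Spi1 had 3 peaks, and none passed the threshold. It spans 33367 bp on the plus strand of chromosome 2 (91082390 to 91115756), without a peak at the start site. The peak in intron 1 (91084063 to 91085095, 2189 bp from the start) had 400, 467 and 426 in control and 529, 485 and 572 in Taf4a sKO libraries. The genotypes did not overlap, but the log2 change of 0.29 (SE 0.13) did not pass the threshold (adjusted p = 0.068 from limma, and 0.036 without control replicate 3).

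The peak of Spi1 at 3715 bp upstream (91078274 to 91079075) had 250, 225 and 219 against 262, 223 and 306, and the peak in intron 2 (91101170 to 91101853) had 288, 307 and 345 against 304, 345 and 361. Both overlapped between the genotypes. The control values of the 3 peaks, 288 to 458 per kb, lay between 13.0% and 21.3% in the ranking of start-site peaks of protein-coding genes. None of the 3 is itself a start-site peak. In the ranking of all peaks they lay between 43.6% and 62.7%.

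Ikzf1 had the lowest signal of the 6 genes with peaks. Its 2 peaks lie over a CpG-rich stretch at the start of the gene on the plus strand of chromosome 11 (11685003 to 11772926). The peak at 11685661 to 11685910 had 17, 28 and 32 in control and 31, 19 and 21 in Taf4a sKO libraries, and that at 11686014 to 11686223 had 17, 22 and 46 against 21, 16 and 6. The genotypes overlapped at both (adjusted p = 0.84 and 0.096 from limma). The latter was lower without control replicate 1 (adjusted p = 0.015) and without Taf4a sKO replicate 1 (0.033).

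Per kb, the Ikzf1 peaks had 103 and 135 in control. Of the start-site peaks of protein-coding genes, 0.896% and 2.36% were lower. Their CpG ratios of 1.08 and 1.00 exceeded those of 99.9% and 99.6% of all peaks.

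The receptor gene Csf1r, on the plus strand of chromosome 18 (61100598 to 61132149), had a single peak, in intron 1 and 8036 bp from the start (61108113 to 61109155). Its values were 192, 249 and 297 in control and 461, 395 and 507 in Taf4a sKO libraries. The genotypes did not overlap, and the peak was higher in Taf4a sKO by 0.90 on the log2 scale (SE 0.16, adjusted p = 1.0e-04 from limma), a 1.85-fold difference. In control it had 236 per kb. The start of Csf1r, 7515 bp from the edge of this peak, was without a peak, and the start of the neighbouring Pdgfrb, a gene of mural and fibroblast-like cells, was 62913 bp away.

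Cd68 showed the opposite direction. Its only peak, from 69666107 to 69666358 on chromosome 11, covers the start of the gene and 3 CCAAT and 2 AP-1 matches. The values were 201, 208 and 307 in control and 129, 133 and 129 in Taf4a sKO libraries. All Taf4a sKO values were below all control values, and the peak was lower by -0.84 on the log2 scale (SE 0.17, adjusted p = 3.7e-04 from limma). The density in control, 947 per kb, was near the median of start-site peaks. The nearest start of another protein-coding gene, Mpdu1, lay 3465 bp away.

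**Figure D3:**
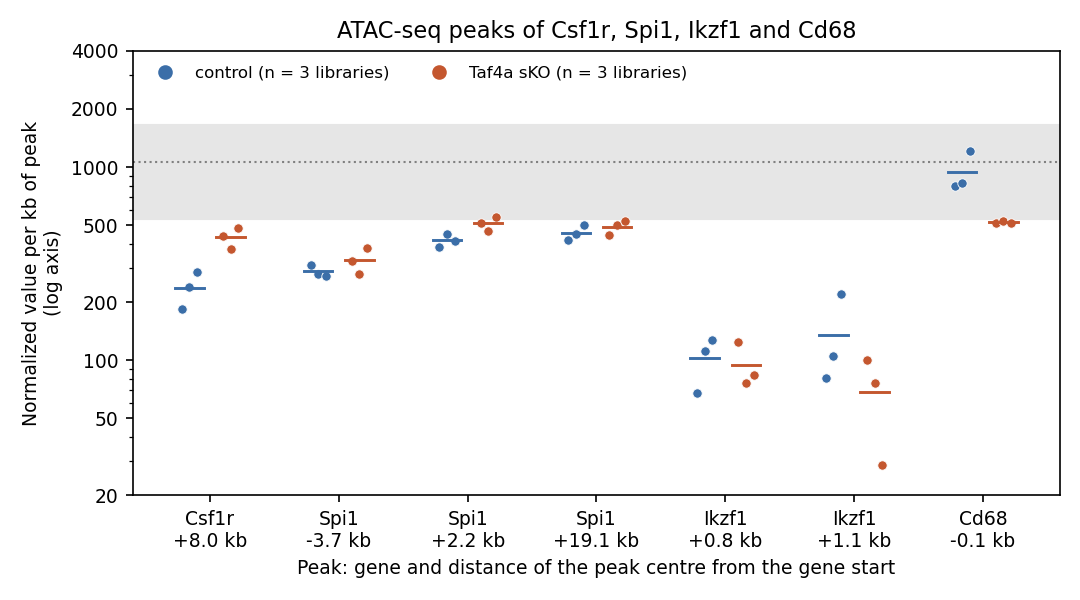
Normalized value per kb of peak (y axis, log scale) in each library for the 7 peaks of Csf1r, Spi1, Ikzf1 and Cd68, named by gene and distance of the peak centre from the gene start. Points are libraries (blue control, orange Taf4a sKO, n = 3 each), bars their means, the grey band and dotted line the middle quartiles and the median (1066) of start-site peaks of protein-coding genes; Csf1r is higher and Cd68 lower in Taf4a sKO, and both Ikzf1 peaks lie far under the band.

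Blnk had the largest summed value after Runx1, in fewer peaks, and its median peak was denser in control (614 against 521 per kb). It spans 65609 bp on the minus strand of chromosome 19 (40928927 to 40994535), and 2 of its 9 peaks were higher, 1 was lower and none was gained or lost, beside 28.0% higher and 13.9% lower of all peaks tested. Without control replicate 3, the peaks at 40963054, 40989960, 40995713 and 40998512 were higher as well, beside 37.8% of all peaks tested. The peak over the start (40994038 to 40994408) had 365, 317 and 374 in control and 400, 454 and 387 in Taf4a sKO libraries. The values did not overlap, yet the log2 change of 0.23 (SE 0.13) did not pass the threshold (adjusted p = 0.17 from limma).

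The peak of highest density among all 40, with 2915 per kb in control, lay 1518 bp upstream of Blnk (40995713 to 40996392). It had 1834, 1762 and 2350 in control and 2437, 2183 and 2282 in Taf4a sKO libraries, which overlapped (adjusted p = 0.11 from limma, and 8.1e-04 without control replicate 3). Of the start-site peaks of protein-coding genes, 96.9% had a lower density. The next start of a protein-coding gene, that of Dntt, a lymphoid DNA polymerase, was 32883 bp away.

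The higher peaks of Blnk were in introns. In intron 1, the peak at 40993438 to 40993730 had 192, 243 and 296 in control and 409, 444 and 461 in Taf4a sKO libraries (log2 change 0.86, SE 0.15, adjusted p = 8.7e-05 from limma). In intron 3, that at 40964985 to 40965869 had 499, 463 and 427 against 767, 700 and 763 (log2 change 0.68, SE 0.12, adjusted p = 8.3e-05 from limma). The genotypes did not overlap at either peak.

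The lower peak of Blnk lay 9527 bp upstream (41003918 to 41004205), with 74, 107 and 105 in control and 61, 56 and 63 in Taf4a sKO libraries (log2 change -0.64, SE 0.21, adjusted p = 0.016 from limma). Without control replicate 2 it did not pass the threshold (adjusted p = 0.095 from limma). The 6 peaks that were not called had log2 changes of 0.06 to 0.34.

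**Figure D4:**
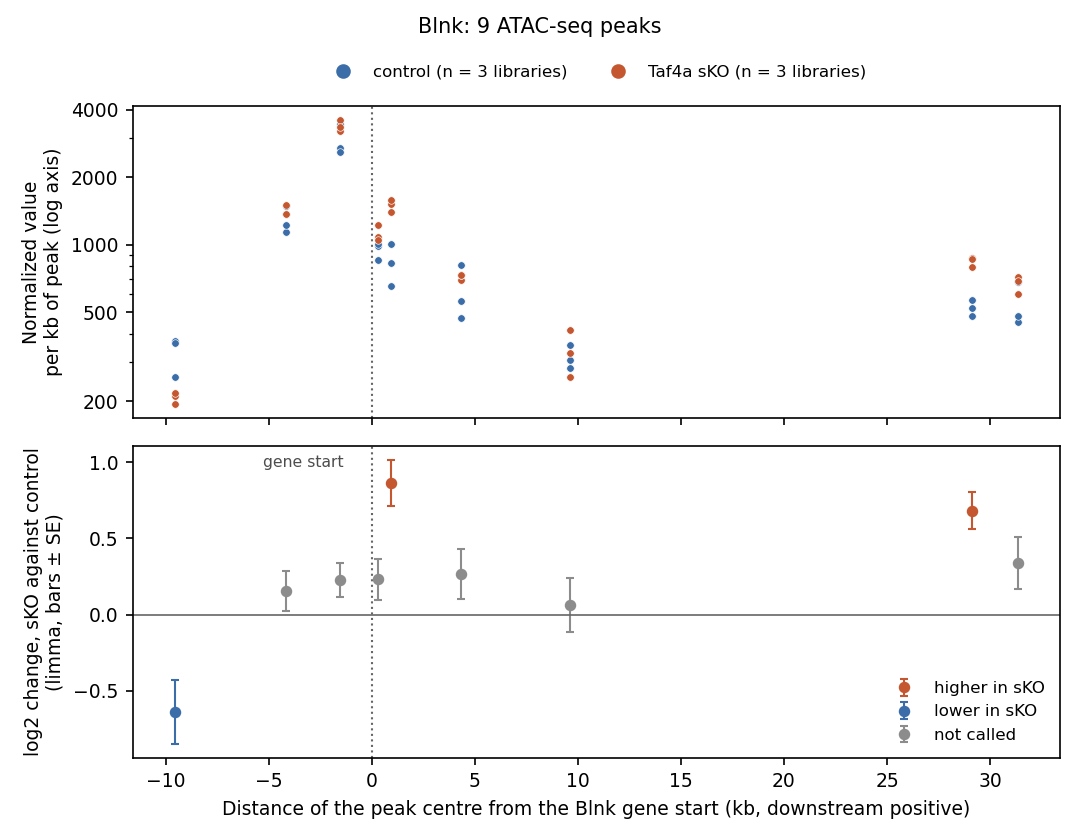
Blnk peaks by distance of the peak centre from the gene start (kb, x axis; negative is upstream). Upper panel: normalized value per kb of peak on a log axis for each library (blue control, orange Taf4a sKO, n = 3 each). Lower panel: limma log2 change with SE, coloured where called; 2 intronic peaks are higher (0.86 and 0.68) and the most upstream peak is lower (-0.64).

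The sequence under the 40 peaks was set beside that of all peaks. Their median GC content was 50.6% and their median CpG ratio 0.28, against 50.5% and 0.27 of all peaks. A PU.1 match was present in 2 peaks (5%) and an ETS match in 2, against 4.54% and 5.43% of all peaks. GATA matches were in 4 (10%), E-box matches in 17 (42.5%) and CCAAT in 16 (40%), where all peaks had 5.67%, 45.9% and 52.8%. RUNX matches were in 9 (22.5%, all peaks 12.95%). The AP-1 motif was in 22 of the 40 (55%) and in 16 of the 24 Runx1 peaks (66.7%), against 33.5% of all peaks and 33.7% of the 37107 peaks in the middle length range of the 40. It was in 13 of the 20 higher and in 9 of the 20 other peaks.

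Genes whose products work with those of the 9 genes, or are related to them, were read from the peaks that carry their symbol. Of 24 such genes, 12 (50%) had a start-site peak, among them Laptm4a (2801 per kb in control), a relative of Laptm5, and Cbfb (1820 per kb), which binds RUNX proteins. Of the 30 peaks of the list, 10 were higher and 5 lower, beside 28.0% and 13.9% of all peaks tested. A peak of Csf1, the ligand of the Csf1r product, rose from 118, 95 and 119 to 287, 314 and 355 (log2 change 1.52, SE 0.16, adjusted p = 1.3e-07 from limma), and a peak of Csf2rb, a chain of the receptors for other colony-stimulating factors, fell from 158, 172 and 211 to 51, 48 and 68 (log2 change -1.68, SE 0.19, adjusted p = 4.4e-07 from limma). No peak carried the symbol of Runx2, Runx3, Spib, Spic or Syk.

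Of 20 further haematopoietic transcription factors, 12 had a start-site peak. The most accessible were Irf8 (1338 per kb in control) and Cebpa (1312 per kb). Irf8, a factor of monocytes and dendritic cells, rose at the start site from 1591, 1396 and 1505 to 1903, 1820 and 1884 (log2 change 0.32, SE 0.10, adjusted p = 0.013 from limma). Cebpa had 3341, 3057 and 3971 against 3572, 3316 and 3306 and was not called. Of the 47 peaks of this list, 7 were higher and 2 lower, beside the same 28.0% and 13.9%, and 2 were lost, both of Lyl1. Its summed values, 18354, 17679 and 21087 in control and 19678, 19954 and 20109 in Taf4a sKO libraries, overlapped.

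Changed peaks occurred in the lineage lists in both directions. The start-site peak of Camp was gained, with 228, 222 and 315 in control and 605, 519 and 539 in Taf4a sKO libraries (log2 change 1.13, adjusted p = 2.1e-06 from limma). Distal peaks of Blk, Cd2, Pf4 and Fcgr1 were gained as well, with log2 changes of 1.10, 1.17, 1.66 and 1.10. The largest fall was at a peak 1342 bp from the start of Cd8b1, with 232, 244 and 278 against 22, 32 and 12 (log2 change -3.55, SE 0.27, adjusted p = 2.7e-08 from limma), and 1609 bp from the start of the muscle gene Smyd1. Peaks of Il2rb, Inpp5d and Cd22 were lost too, by -1.94, -2.23 and -1.40 on the log2 scale. In all, 14 of the 54 peaks of the 7 lineage lists were higher and 6 lower, 6 were gained and 4 lost, beside 28.0%, 13.9%, 7.03% and 5.36% of all peaks tested.

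Lists of the other cell types of muscle were also read by symbol alone. Start-site peaks were found at 5 of 14 endothelial, 9 of 12 fibro-adipogenic, 6 of 7 mural, 4 of 8 Schwann cell, 2 of 4 tenocyte and 4 of 9 myofibre genes. Of their peaks, 6 of 16, 16 of 31, 7 of 12, 2 of 16, none of 6 and none of 15 were higher, and 1, 2, 0, 1, 0 and 6 were lower. In the MuSC list 27 of 73 peaks were higher and 5 lower, and over all peaks tested the shares were 28.0% and 13.9%. Among the most accessible start sites were those of Tek, a receptor of endothelial cells (904 per kb in control), Dpt (1171) and Col1a1 (729), 2 matrix genes of fibroblasts, and Heyl (2149) and Cdh15 (2132) of MuSCs. Summed values of the endothelial list were 4056, 4005 and 4824 in control and 6083, 6150 and 6263 in Taf4a sKO libraries, and those of the MuSC list 65057, 57478 and 70341 against 74078, 68167 and 69327. Those of the fibro-adipogenic list were 14086, 13194 and 15757 against 19084, 17818 and 17681, and those of the mural list 7091, 6714 and 8049 against 9310, 8995 and 9097. The endothelial, fibro-adipogenic and mural sums were separated between the genotypes, and the MuSC sums overlapped. Those of the 9 haematopoietic genes by symbol, 4568, 4732 and 5870 against 6376, 5999 and 6531, were separated too. Overlap was also found for the Schwann cell list (5541, 5271 and 6614 against 5912, 5789 and 5802), the tenocyte list (7171, 6586 and 7933 against 8311, 6851 and 7249) and the myofibre list, with 6357, 5803 and 7429 in control and 5980, 5160 and 5367 in Taf4a sKO libraries. The part of these cell types in the result was not tested.

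The course of the summed signal of the 40 peaks over the 6 libraries was shared with many genes. Among 5744 genes of the table with at least 2 peaks, the summed log2 values of Clca2 (Pearson's r = 0.998), Rps14 (0.998) and Cdkn1c (0.998) were the most alike, and 716 genes had an r above 0.95. The points are the same 6 libraries throughout and separate by genotype, so this describes the level of the genotypes and not a relation between genes.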

How the data were processed

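ATAC-seq libraries of freshly isolated MuSCs, 3 of control and 3 of Taf4a sKO mice, were analysed. Per the methods, the authors trimmed reads (Trimmomatic 0.39), aligned them to mm10 with Ensembl release 101 annotation (STAR 2.7.11b), removed duplicates (Picard 3.1.1) and spliced, multi-mapping, ribosomal and mitochondrial reads, called peaks with MACS in each sample in paired-end mode, unified them and counted reads with featureCounts. The stated peak call used no control file and no shift for the Tn5 insertion. The deposited values are a score, namely these counts normalized by the authors for depth and rounded to whole numbers; peaks were given to the nearest gene by the authors. Some small whole numbers never occur in a library, and their spacing gave depth factors of 1.39, 1.00 and 1.23 for control and 1.39, 1.37 and 1.29 for Taf4a sKO libraries, which puts 27151814 to 35138377 reads behind the totals. The factor of control replicate 2, which gives the upper end, is close to 1, and its whole reads were not accepted as recovered.

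Scores are not raw counts, so limma 3.58.1 (R 4.3.3; trend and robust moderation) was used on log2(value + 1) over all peaks with a mean above 10, with Benjamini-Hochberg adjustment, after a check on simulated data. A planned comparison of called peaks with the start-site peak of the same gene is not reported, since those peaks were chosen on the same values. Genes were matched to GENCODE vM21, and sequences came from RefSeq, GRCm38.p6, all of whose 32851 promoters equalled the genome at their coordinates. The genes, gene lists, motifs and tests were chosen with earlier results of these data known. Named were all peaks of the 9 genes (of Runx1 and Blnk in full the peak nearest the start, the densest, every gained or lost peak and the 3 called peaks of smallest p), of other lists the 2 genes with the densest start-site peak and up to 3 with a gained or lost peak, and the 3 genes most alike over the libraries. Alternatives covered scaling, minimum, pseudocount, thresholds, membership, the replicate block and each replicate left out. The labels call the samples biological replicates only by number, and p-values measure the spread between these 6 libraries.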

Additional observations from a re-analysis of the deposited data

How the results depend on the processing

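Of the 22 peaks of the haematopoietic genes called higher or lower, 20 kept their call in all 14 other fits. The exceptions were the Runx1 peak at 92684411, which was not called with equal totals (adjusted p = 0.064), after quantile normalization (0.139) or without any single library other than control replicate 3 (0.054 to 0.121, all limma), and the Blnk peak at 41003918, not called without control replicate 2. Lost peaks numbered 2 under TMM, 2 under median-of-ratios and 2 under equal totals, 4 at a 1.5-fold threshold, and 0 to 2 with a replicate left out. The lost peaks under each of the scalings were those of Runx1 at 92706527 and Ikzf1 at 11686014. Gained peaks numbered 4 instead of 6 under each of these scalings, without the Runx1 peaks at 92631501 and 92788360, 14 at a 1.5-fold threshold and 0 at a log2 threshold of 1.5. The shares of gained and lost peaks over all peaks were computed only for the values as deposited at a log2 threshold of 1. These other counts therefore cannot be set beside a share of all peaks. The median log2 change was 0.26 with TMM, 0.25 with median-of-ratios, 0.22 with equal totals and 0.19 after quantile normalization. Over all peaks tested the median moved down too, from 0.11 as deposited to -0.006, -0.007, -0.042 and -0.024 in the same order. Lower peaks numbered 1 to 3 with a replicate left out, beside 11.4% to 13.3% of all peaks tested. They were fewest without control replicate 2. Without Runx1, a choice made after seeing the data, 3 peaks were higher, 0 gained and the median was 0.20. That count of higher peaks rose when control replicate 3 was left out as well, and so did the share over all peaks tested, from 28.0% to 37.8%. The Spi1 peak at 91084063 and the Blnk peaks at 40963054, 40989960, 40995713 and 40998512 were then added (adjusted p = 8.1e-04 to 0.043 from limma). At 3000 bp, 5 genes had a peak near the start. Among all called peaks, the share of higher ones was 66.8% as deposited, 53.2% with TMM, 53.0% with median-of-ratios, 49.7% with quantile normalization and 47.6% with equal totals.

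Some peaks that were not called changed sign. With TMM the log2 change was -0.0078 for the Spi1 peak at 91101170, -0.10 for Runx1 at 92695518 and -0.052 for Blnk at 40984651. With median-of-ratios factors these were -0.0090, -0.10 and -0.053, and with equal totals -0.044, -0.14 and -0.088. After quantile normalization they were -0.10, -0.17 and -0.074, with -0.0015 for Spi1 at 91078274, -0.075 for Blnk at 40998512 and 0.088 for Ikzf1 at 11685661. Quantile normalization also made Runx1 at 92679701 a lower peak (-0.21, adjusted p = 0.031 from limma). With a replicate left out, the range was -0.13 to 0.14 for Runx1 at 92679701, -0.031 to 0.070 at 92695518 and -0.36 to 0.042 at 92710157, -0.36 to 0.080 for Ikzf1 at 11685661 and -0.11 to 0.24 for Blnk at 40984651. The cause was not tested.

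Replicate numbers did not pair the samples: deviations of same-numbered libraries from their group means correlated at 0.11, -0.12 and -0.03 across peaks. With the replicate block, 21 peaks were higher and 3 lower, beside 29.1% and 14.6% of all peaks tested. The Runx1 peak at 92653855 (adjusted p = 0.014) and the Ikzf1 peak at 11686014 (adjusted p = 0.040, both limma) were added. The Taf4 peak changed by -1.58 with the block. A count test was not run, because whole reads could not be recovered for every library. With 3 libraries per genotype, weak peaks such as those of Ikzf1 rest on few reads.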
